A study of Mus musculus with 9 samples.

Results

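A set of 50 genes of the cyclin, cyclin-dependent kinase (CDK) and CDK inhibitor families was followed through development of the mouse central nervous system. Its members were chosen by symbol, through the Ensembl identifiers of a deposited table of raw read counts, and the list was drawn up with earlier results of these data known. All 50 members were among the 45706 identifiers of the table. The RNA came from C57BL6/J mice, with no mutation or treatment named, and each of 3 stages had 3 libraries of whole tissue: E9.5 and E14.5, named by embryonic days, and P60, by days after birth. At E9.5 the piece taken was the head, separated behind the 4th ventricle and cleared of surplus tissue outside the neuroectoderm. At E14.5 it was the brain stripped of its meninges, and at P60 the perfused adult brain. Age and the piece of tissue taken therefore cannot be told apart. The labels do not say whether the 3 libraries of a stage came from separate animals, so p-values measure the spread between these libraries, which may be technical.

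A cyclin binds a CDK and switches on its kinase activity. In dividing cells D cyclins with Cdk4 or Cdk6 and E cyclins with Cdk2 phosphorylate the retinoblastoma (pocket) proteins, which frees E2F factors to drive genes of DNA synthesis, and A and B cyclins with Cdk1 carry the cell through mitosis. CDK inhibitors of the Cip/Kip and INK4 families restrain these kinases, and in the nervous system they accompany cell cycle exit. Other family members do not drive division: Cdk5 works in postmitotic neurons with the non-cyclin activators p35 and p39, and a further group of CDKs phosphorylates RNA polymerase II or serves the Mediator complex and splicing. By these roles the members were placed in 5 classes: 19 genes of the cell cycle engine, 6 brakes, 10 genes with postmitotic or atypical roles, 14 genes of transcription and splicing, and the germline cyclin gene Ccna1.

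Library totals lay between 30481975 and 35619093 counts. Levels are given as CPM, reads of the gene for every 1000000 counts of the library, in order of replicate number. Fold changes are log2 values of the later over the earlier stage ± SE from edgeR's quasi-likelihood fit, with p-values adjusted over the 17971 genes that passed a filter on low counts, and a gene was called at an adjusted p under 0.05. All 50 members passed that filter. In each comparison most genes of the table were called, so the members' counts are set beside those shares. Marker genes of several cell types differed between the stages. The summed level of 5 markers of proliferating cells was 2500 to 2750 CPM at E9.5, 796 to 851 CPM at E14.5 and 69.8 to 93.3 CPM at P60. For 5 neuronal markers it was 180 to 202 CPM at E9.5, 4050 to 4490 CPM at E14.5 and 4860 to 5650 CPM at P60. All 5 rose in the first step, and at P60 against E14.5 3 rose and 2 (Tubb3 and Map2) fell. For 5 oligodendrocyte markers the sum was 47.0 to 53.4 CPM, 45.4 to 73.1 CPM and 12400 to 14600 CPM at the same stages. Markers of erythroid cells, 4270 to 5710 CPM at E9.5, 1060 to 2000 CPM at E14.5 and 27.4 to 114 CPM at P60, and of mesenchyme, 678 to 869, 469 to 978 and 19.7 to 32.5 CPM, also moved with stage. Among the 8 erythroid markers, 4 rose and 4 fell at E14.5 against E9.5. The 5 neural progenitor markers summed to 1260 to 1520 CPM at E9.5, 1420 to 1990 CPM at E14.5 and 99.8 to 125 CPM at P60, with 1 rise and no fall in the first step and 5 falls in the second. Muscle markers set E9.5 replicate 1 apart, with Actc1 at 127 CPM, against 2.92 and 2.91 CPM in both other E9.5 libraries. In bulk tissue, fewer cells of a type and less RNA per cell cannot be told apart, and the part of the marker shifts in the results below was not tested. Long genes (6792 bp of exon or more) were low relative to short ones (2762 bp or less) in replicate 1 of E14.5, by a median of -0.44 on the log2 scale, against 0.22 in both other E14.5 libraries, and at P60 the values were -0.10, 0.41 and -0.30.

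Across the whole set, falls outnumbered rises in every comparison, and the classes differed in direction. At E14.5 against E9.5, 41 of 50 members were called, beside 64.6% of all genes tested: 15 rose, beside 34.0%, and 26 fell, beside 30.7%. In the second step, P60 against E14.5, 44 were called, beside 76.1% of all genes: 11 rose, beside 36.7%, and 33 fell, beside 39.4%. Over the whole span, P60 against E9.5, 48 were called, beside 82.6%: 17 rose, beside 42.0%, and 31 fell, beside 40.6%. The median log2 fold change of the members was -0.45, -1.41 and -1.90 in these comparisons, and that of all genes tested was 0.03, -0.06 and 0.05. The libraries of both stages did not overlap in 37 members in the first step (71.5% of all genes), in 42 in the second (76.3%) and in 47 over the whole span (84.9%), shares not far from those of all genes. The comparisons share libraries, so their counts are not independent of each other.

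By class, all 19 genes of the engine were lower at E14.5 than at E9.5, 18 were lower and 1 higher at P60 than at E14.5, and all 19 were lower at P60 than at E9.5. The shares of all genes given above (34.0% higher and 30.7% lower in the first step, 36.7% and 39.4% in the second) are the background for the counts of each class. The classes were drawn up with earlier results of these data known, and of the pocket proteins Rbl1 was placed with the engine and Rb1 and Rbl2 with the brakes, so the directions of a class are a description and no independent support. The engine's median log2 fold changes were -1.72, -3.78 and -5.50. Of the 6 brakes, all rose at E14.5 against E9.5 (median 1.61), then 2 rose and 4 fell at P60 against E14.5 (median -0.94). The postmitotic and atypical class had 7 rises and 1 fall of 10 in the first step (median 1.13) and 5 rises and 3 falls in the second (median 0.28). In the transcription and splicing class 2 rose and 6 fell of 14 in the first step (median -0.37), and 3 rose and 8 fell in the second (median -1.50). Summed over its genes, the engine class measured 4110 ± 78.3 CPM at E9.5, 1880 ± 53.5 CPM at E14.5 and 245 ± 2.83 CPM at P60 (SD, n = 3 each). The brakes summed to 97.2 ± 8.72, 322 ± 21.5 and 243 ± 17.1 CPM, and the postmitotic class to 691 ± 19.4, 1570 ± 33.8 and 1420 ± 154 CPM at the same stages. The brake sum leaves out the CDK inhibitor gene Cdkn1c, which is not a member. Cdkn1c averaged 144 ± 50 CPM at E9.5 and 258 ± 57.4 CPM at E14.5, above each of the 6 brakes, and 15.8 ± 1.57 CPM at P60. Unlike the brake sum, it was lower at P60 than at E9.5 (-3.14 ± 0.27, adjusted p = 9.5e-07). The sum over the transcription class was 1240 ± 73.2 CPM at E9.5, 1000 ± 59.5 CPM at E14.5 and 557 ± 4.71 CPM at P60.

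**Figure D1:**
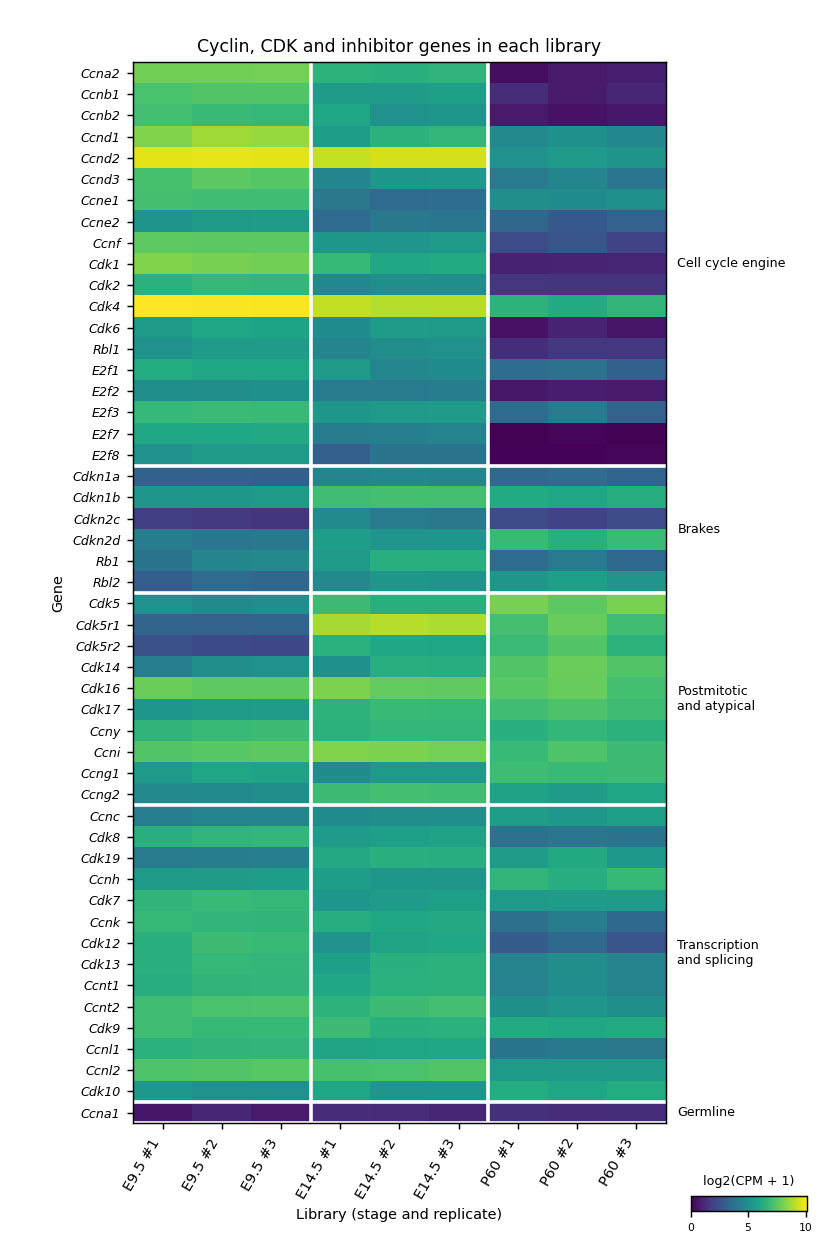
Level of each of the 50 members in each of the 9 libraries, as log2(CPM + 1) on a colour scale, with genes in rows by class and libraries in columns by stage and replicate, to be read along a row since the scale is not per length. The engine genes are darker at P60 than at E9.5, and Cdk5, Cdk5r1 and Cdk5r2 are brighter at E14.5 and P60 than at E9.5.

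**Figure D2:**
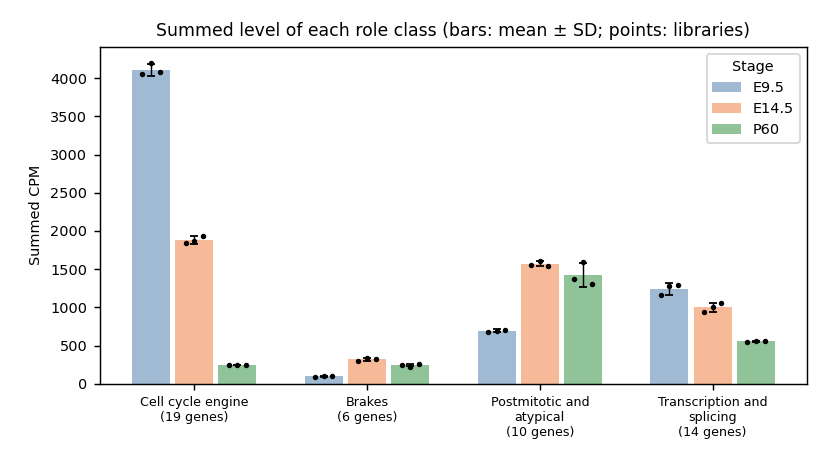
Summed CPM of 4 classes (horizontal axis), with bars for the mean ± SD of 3 libraries at E9.5, E14.5 and P60 and points for libraries. The engine's sum averaged 4110 CPM at E9.5, 1880 CPM at E14.5 and 245 CPM at P60, and that of the postmitotic class 691, 1570 and 1420 CPM.

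Over the whole span Ccna2, Cdk1, Ccnb2 and Ccnb1 had the deepest falls among the cyclins and CDKs of the engine, whereas in the first step these were in Ccne1 (-3.48), Ccnd3 (-2.38), Ccnf (-2.34) and Ccnd1 (-2.25). Cdk1, the mitotic kinase (chr10:69335146-69352938, mm10, minus strand), measured 296, 261 and 247 CPM at E9.5, 110, 65.5 and 71.5 CPM at E14.5 and 0.895, 0.962 and 1.07 CPM at P60. Its 3 P60 libraries lay near 1 CPM, and no library of one stage reached the range of another. The fold change was -1.78 ± 0.21, adjusted p = 2.6e-05, at E14.5 against E9.5 and -6.27 ± 0.27, adjusted p = 1.6e-08, at P60 against E14.5. Cyclin A2 (Ccna2), which acts in S phase and at mitotic entry, averaged 252 ± 2.02 CPM at E9.5, 90.3 ± 4.36 CPM at E14.5 and 0.594 ± 0.273 CPM at P60 (SD, n = 3 each), a fall of 402-fold over the whole span. Its P60 libraries held 9, 24 and 29 reads, and Exosc9 overlaps 12.491% of its exon bases on the opposite strand. The B cyclins, Cdk1's mitotic partners, fell alongside. Ccnb1 averaged 160 ± 10.7 CPM, 47.7 ± 3.4 CPM and 1.07 ± 0.384 CPM at the 3 stages, and Ccnb2 118 ± 17 CPM, 45.9 ± 14.3 CPM and 0.543 ± 0.139 CPM. The processed pseudogene Ccnb2-ps held 97, 120 and 163 reads at P60, more than the 21, 14 and 20 reads of Ccnb2 there. At E9.5 it held 110, 108 and 135 reads, beside 4200, 3407 and 3286 of Ccnb2. At E14.5 it held 319, 429 and 346 reads, beside 2021, 1195 and 1290. Whether reads were exchanged between gene and pseudogene was not tested, so the P60 level of Ccnb2 is uncertain. Ccnf, the F-box cyclin that marks proteins for degradation in G2, averaged 191 ± 2.06 CPM, 40.4 ± 2.35 CPM and 4.1 ± 1.06 CPM. Cdk2, the S-phase kinase, averaged 97.7 ± 9.59 CPM, 29.7 ± 3.93 CPM and 1.96 ± 0.0689 CPM, and its fold change at P60 against E9.5 was -5.59 ± 0.17, adjusted p = 5.6e-10.

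Cell cycle promoters are known for E2F sites and for the cell cycle homology region (CHR), a site of the DREAM and MYB-MuvB complexes, often near CCAAT boxes bound by NF-Y. RefSeq promoter windows (300 bases, GRCm38.p6, 250 before to 50 after the start) were given for 39 of the 50 members, 45 windows in all. They were searched on both strands for E2F forms (TTTCCCGC, TTTCGCGC, TTTGCCGC or TTTGGCGC), for CHR (TTTGAA) and for CCAAT, each counted separately where they overlapped. An E2F form was in 33.3% of the 18 engine windows (15 genes, some with several windows), against 2.26% of all 32851 windows. It was in 0 of the 7 brake, 7 postmitotic and 12 transcription windows. The windows with an E2F form include that of Rbl1, an E2F target placed with the engine. The share of this class is therefore a description and no independent support. CHR was in 6 of the 18 engine windows, against 17.9% of all windows, and each of the 6 also held CCAAT, a combination found in 6.95% of all windows. CHR was also in 2 of the 7 postmitotic and 1 of the 7 brake windows, 1 of these 3 with CCAAT, and in 0 of the 12 transcription windows. CCAAT with or without CHR was in 61.1% of engine windows, 6 of 12 transcription windows and 37.4% of all windows. No window was given for Ccna2, Ccnd1, Ccnd2, Ccne2, Rb1, Cdk5, Cdk5r1, Cdk17, Ccny, Ccnh or Cdk19. A match describes letters and is not a binding site. The windows of 4 engine genes are shown with matches in capitals. Cdk1 and Ccnb2 carry CHR and CCAAT, and E2f7 carries an E2F form and CCAAT. Ccne1 is a window with no match to any of the 3 motifs, as is that of Cdk4. The windows of Cdk6 and E2f1 had no match either, but both lie wholly inside the gene. The Cdk6 window begins at 3343643 and the plus-strand gene at 3341485. For E2f1 the window ends at 154569676, and the minus-strand gene begins at 154569892. Neither window covers the sequence before that outermost start. The same holds in other classes for both Cdkn2c windows, those of Cdk14, Ccng2, Cdk9, Ccnt1 and Ccna1, and the inner windows of Cdkn1a and Cdk16. Among engine genes it also holds for the inner windows of Ccnd3, E2f2 and E2f3. A class without a match was therefore not searched before the outermost start of each of its genes.
Cdk1 (chr10:69352863-69353162, minus strand): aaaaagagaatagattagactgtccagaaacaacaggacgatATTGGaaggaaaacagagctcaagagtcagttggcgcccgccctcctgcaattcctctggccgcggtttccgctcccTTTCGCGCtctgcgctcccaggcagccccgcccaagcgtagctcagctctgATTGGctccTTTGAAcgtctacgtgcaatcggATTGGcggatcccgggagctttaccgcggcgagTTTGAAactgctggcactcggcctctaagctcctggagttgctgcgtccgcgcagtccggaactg
Ccnb2 (chr9:70421505-70421804, minus strand): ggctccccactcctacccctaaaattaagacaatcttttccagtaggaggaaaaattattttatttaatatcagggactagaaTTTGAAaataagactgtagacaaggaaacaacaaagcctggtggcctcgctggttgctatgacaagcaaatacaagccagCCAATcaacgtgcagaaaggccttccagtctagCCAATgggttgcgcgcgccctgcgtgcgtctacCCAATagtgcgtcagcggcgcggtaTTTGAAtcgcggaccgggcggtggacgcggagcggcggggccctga
E2f7 (chr10:110745189-110745488, plus strand): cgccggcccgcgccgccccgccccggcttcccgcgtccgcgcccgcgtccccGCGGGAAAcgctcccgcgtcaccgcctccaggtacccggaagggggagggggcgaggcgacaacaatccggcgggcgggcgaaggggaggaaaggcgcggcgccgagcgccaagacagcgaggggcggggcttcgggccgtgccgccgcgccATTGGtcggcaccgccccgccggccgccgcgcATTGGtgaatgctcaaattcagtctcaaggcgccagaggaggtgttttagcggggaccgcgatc
Ccne1 (chr7:38107441-38107740, minus strand): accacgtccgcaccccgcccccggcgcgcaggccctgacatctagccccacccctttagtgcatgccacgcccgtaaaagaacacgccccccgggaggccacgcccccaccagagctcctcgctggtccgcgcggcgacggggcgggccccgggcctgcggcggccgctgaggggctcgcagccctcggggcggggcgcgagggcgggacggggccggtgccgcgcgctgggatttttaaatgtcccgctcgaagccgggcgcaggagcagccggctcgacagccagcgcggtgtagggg
In the Cdk1 window the E2F form begins 131 bases before the start, and the CHR matches 71 and 15 bases before it, with CCAAT boxes on the opposite strand beginning 208, 80 and 48 bases before. The Ccnb2 window has CCAAT matches 87, 54 and 21 bases before the start.

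The 3 D cyclins, which couple growth signals to Cdk4 and Cdk6, fell with different timing. Ccnd1 (chr7:144929931-144939925) measured 297, 404 and 379 CPM at E9.5, 49.4, 89.6 and 104 CPM at E14.5 and 26, 32.9 and 25.2 CPM at P60. Most of its fall was in the first step, -2.25 ± 0.25, adjusted p = 1.5e-05, and it fell again by P60, -1.39 ± 0.24, adjusted p = 0.00035. Ccnd3 likewise fell early, with 143, 190 and 174 CPM at E9.5, 23.2, 39.4 and 41.2 CPM at E14.5 and a mean of 18.2 ± 4.54 CPM at P60 (SD, n = 3), where the libraries held 524, 822 and 517 reads. Its fold change was -2.38 ± 0.24, adjusted p = 7.5e-06, in the first step and -0.79 ± 0.23, adjusted p = 0.0097, in the second, in which the P60 and E14.5 libraries overlapped at 23.2 CPM. Ccnd2, the D cyclin known for intermediate neural progenitors, measured 824, 861 and 834 CPM at E9.5, 601, 708 and 707 CPM at E14.5 and 33.8, 42.7 and 36.4 CPM at P60. It was lower at E14.5 than at E9.5 (-0.41 ± 0.14, adjusted p = 0.021), a call lost with library totals, without a filter and without any E9.5 replicate or E14.5 replicate 3, and it fell 16.2-fold at P60 against E14.5 (-4.02 ± 0.16, adjusted p = 8.2e-09). Per length, Ccnd2 made up 48.5% ± 3.52 of the summed RPKM of the 3 D cyclins at E9.5, 77.6% ± 4.79 at E14.5 and 33.4% ± 1.9 at P60 (SD, n = 3 each), whereas Ccnd1 made up 41.2% ± 2.97, 18.2% ± 4.15 and 49.6% ± 0.477. An opposite-strand gene, LTO1, overlaps 23.36% of the exon bases of Ccnd1, and without known strand its reads cannot be separated there.

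Of the kinases that D cyclins bind, Cdk4 was the more abundant per length at every stage, and both fell. Cdk4 measured 1110, 1060 and 1030 CPM at E9.5, 584, 510 and 526 CPM at E14.5 and 91.3, 71.4 and 99.5 CPM at P60, lower at P60 than at E9.5 by 11.8-fold (-3.56 ± 0.18, adjusted p = 1.1e-08). Cdk6 measured 45.2, 62.6 and 58.1 CPM at E9.5, 29.4, 46 and 41.7 CPM at E14.5 and 0.415, 0.962 and 0.505 CPM at P60. In the first step the Cdk6 libraries overlapped between stages (-0.60 ± 0.23, adjusted p = 0.04), and the call was lost with library totals (adjusted p = 0.088), without a filter, without E14.5 replicate 1 (adjusted p = 0.11), and without E9.5 replicate 2 or 3, E14.5 replicate 3 or P60 replicate 1 or 3. All P60 libraries of Cdk6 then lay under 1 CPM, and the fold change at P60 against E14.5 was -5.80 ± 0.31, adjusted p = 5.6e-08. Cdk4 held 98.8% ± 0.228 of the RPKM of both kinases at E9.5, 98.3% ± 0.465 at E14.5 and 99.8% ± 0.116 at P60. Tspan31 overlaps 19.729% of the exon bases of Cdk4 on the opposite strand.

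The E cyclins activate Cdk2 at the start of S phase, and in adult mouse neurons cyclin E protein is known to bind Cdk5. Ccne1 was the engine gene with a different course: it measured 139, 129 and 127 CPM at E9.5, 15.2, 10.7 and 11.6 CPM at E14.5 and 31.3, 28.2 and 32.9 CPM at P60. The E9.5 libraries were highest and the E14.5 libraries lowest, and no stages overlapped. It fell at E14.5 against E9.5 (-3.48 ± 0.18, adjusted p = 5.7e-08) and was 2.69-fold higher at P60 than at E14.5 (1.43 ± 0.17, adjusted p = 1.7e-05), while P60 stayed below E9.5 (-2.05 ± 0.17, adjusted p = 5.7e-07). Ccne2 measured 36.7, 43.9 and 45.5 CPM at E9.5, 10.7, 15.5 and 14.7 CPM at E14.5 and 9.01, 5.94 and 8 CPM at P60, and was lower in both steps (-1.72 ± 0.19, adjusted p = 1.6e-05, and -0.69 ± 0.19, adjusted p = 0.0065). Ccne1 held 80.4% ± 2.5 of the RPKM of both E cyclins at E9.5, 54.6% ± 9.25 at E14.5 and 84.2% ± 2.1 at P60 (SD, n = 3 each). Ints8 overlaps 17.425% of the exon bases of Ccne2 on the opposite strand.

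Among the E2F factors, the repressors E2f7 and E2f8 were the members that fell furthest over the whole span. E2f7 (chr10:110745439-110787384, plus strand) measured 64.4, 65.8 and 67.7 CPM at E9.5, 18.4, 19.7 and 22 CPM at E14.5 and 0.032, 0.113 and 0.0281 CPM at P60. At P60 these values rest on 1, 4 and 1 reads. The fold change was -1.81 ± 0.16, adjusted p = 2.9e-06, in the first step, -8.19 ± 0.28, adjusted p = 4.9e-09, in the second and -10.00 ± 0.28, adjusted p = 4.3e-10, over the whole span. Without P60 replicate 2, which held 4 of the 6 reads, the last became -10.88 and the P60 against E14.5 value -9.08. E2f8 measured 33.5, 44 and 44 CPM at E9.5, 7.69, 14 and 13.9 CPM at E14.5 and 0.0639, 0.0848 and 0.112 CPM at P60, with 2, 3 and 4 reads at P60, and its fold change over the whole span was -8.74 ± 0.35, adjusted p = 2.8e-09. Gm2788 overlaps 11.207% of the exon bases of E2f8 on the opposite strand. E2f2, an activator, averaged 32.2 ± 0.87 CPM at E9.5, 17.6 ± 0.372 CPM at E14.5 and 0.662 ± 0.0952 CPM at P60 (SD, n = 3 each). Both other activators kept more of their level in the adult. E2f1 averaged 65.6 ± 6.21 CPM, 31.6 ± 9.36 CPM and 10.8 ± 2.74 CPM, and E2f3 averaged 113 ± 5.98 CPM, 43.2 ± 3.15 CPM and 12 ± 4.3 CPM. All 5 E2F genes among the members were lower in both steps. E2f4, E2f5 and E2f6, which are not members, were also lower at E14.5 than at E9.5. At P60 against E14.5 E2f4 was lower again, and E2f5 was not called (-0.15 ± 0.15, adjusted p = 0.37). E2f6 was higher in that step (0.38 ± 0.13, adjusted p = 0.021), with overlap between the libraries of both stages.

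**Figure D3:**
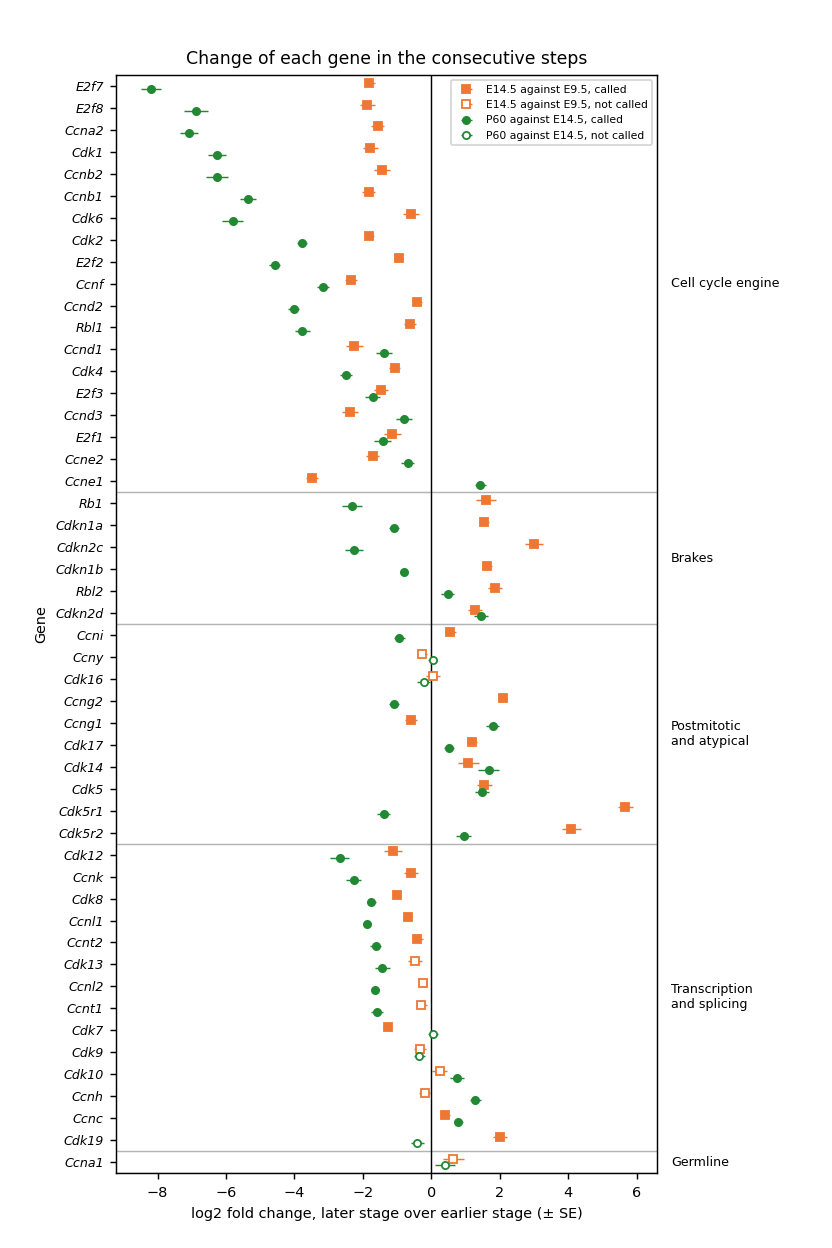
Log2 fold change of each member (rows, by class) in the step to E14.5 (squares) and in the step to P60 (circles), with bars of ± SE, filled where called at an adjusted p under 0.05. Engine genes lie left of 0 except Ccne1 in the step to P60 (1.43), and E2f7 lies furthest left (-8.19).

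All 6 brakes were higher at E14.5 than at E9.5, by 1.28 to 3.00 on the log2 scale. Cdkn1b, the gene of the Cip/Kip inhibitor p27, measured 37.3, 40.1 and 45 CPM at E9.5, 130, 139 and 134 CPM at E14.5 and 70.8, 62.4 and 77.3 CPM at P60. Its E14.5 libraries stood above those of both other stages (1.63 ± 0.14, adjusted p = 1.7e-06, then -0.80 ± 0.13, adjusted p = 0.00023). Cdkn1a, which encodes p21 and is a p53 target, measured 7.88, 7.68 and 7.36 CPM at E9.5, 22.3, 25.4 and 23.5 CPM at E14.5 and 10.3, 11.2 and 8.98 CPM at P60. It had the same order of stages, with 1.54 ± 0.14, adjusted p = 3.6e-06, at E14.5 against E9.5 and -1.09 ± 0.14, adjusted p = 3.3e-05, at P60 against E14.5. Cdkn2c, the INK4 gene of p18, measured 2.68, 2.26 and 1.95 CPM at E9.5, 26.6, 16.7 and 15.2 CPM at E14.5 and 4.06, 3.05 and 4.16 CPM at P60, and was the brake with the largest rise in the first step (3.00 ± 0.27, adjusted p = 3.4e-06). It fell 4.75-fold at P60 against E14.5 (-2.25 ± 0.26, adjusted p = 1.6e-05). At P60 it was still above E9.5 (0.75 ± 0.27, adjusted p = 0.022), a call that did not hold without some libraries (E9.5 replicate 2 or 3, P60 replicate 1 or 3, one at a time). Cdkn2d, the INK4 gene of p19, differed from its relative at P60: it measured 18.5, 14.8 and 15.4 CPM at E9.5, 49.1, 37.6 and 39 CPM at E14.5 and 112, 79.4 and 119 CPM at P60. Its P60 libraries were all above the earlier ones, with 1.44 ± 0.20, adjusted p = 5.4e-05, at P60 against E14.5 and 2.72 ± 0.21, adjusted p = 3.1e-07, at P60 against E9.5.

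The 3 pocket proteins, which hold E2F factors in check, each had their highest level at a different stage. Rbl1 (p107), the E2F target placed with the engine, measured 34.3, 46.7 and 45.8 CPM at E9.5, 23.2, 31.2 and 33.7 CPM at E14.5 and 1.53, 2.15 and 2.16 CPM at P60, and was lower in both steps (-0.62 ± 0.18, adjusted p = 0.012, and -3.77 ± 0.21, adjusted p = 8.5e-08). The first of these calls was lost without E9.5 replicate 2 (-0.54, adjusted p = 0.052). Rb1, the retinoblastoma gene, measured 14, 23.9 and 26.1 CPM at E9.5, 43.5, 81.1 and 80.8 CPM at E14.5 and 10.9, 16.3 and 10.1 CPM at P60, highest at E14.5. It rose in the first step (1.59 ± 0.29, adjusted p = 0.00066) and fell in the second (-2.32 ± 0.30, adjusted p = 3.7e-05). Replicate 1 of E14.5 was the lowest of its stage, and without it the values were 1.82 and -2.55. At P60 against E9.5 the Rb1 libraries overlapped, and the fall (-0.73 ± 0.29, adjusted p = 0.036) was lost with upper quartile scaling and without any of 4 single libraries (E9.5 replicate 2 or 3, P60 replicate 1 or 3). Rbl2 (p130), the pocket protein of quiescent cells and of DREAM, measured 7.32, 10.5 and 8.99 CPM at E9.5, 26.5, 39.7 and 36.7 CPM at E14.5 and 39.7, 52.1 and 38.2 CPM at P60. It rose at E14.5 against E9.5 (1.85 ± 0.20, adjusted p = 1.3e-05), and P60 lay above E9.5 (2.33 ± 0.20, adjusted p = 9.4e-07). Its second step, 0.48 ± 0.19, adjusted p = 0.039, overlapped between stages and was lost with library totals (0.34, adjusted p = 0.14) and without E14.5 replicate 1 (0.34, adjusted p = 0.12). Without E9.5 replicate 1 or 3, E14.5 replicate 3, or P60 replicate 1 or 2, it was lost too. Per length, Rbl1 held 60.2% ± 2.82 of the 3 genes' RPKM at E9.5, Rb1 54.0% ± 3.92 at E14.5 and Rbl2 70.8% ± 1.36 at P60 (SD, n = 3 each). On the opposite strand, Gm45464 overlaps 11.802% and Aktip 9.169% of the exon bases of Rbl2, and Rcbtb2 8.113% and Lpar6 6.783% of those of Rb1.

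Cdk5 and both of its activators were higher at E14.5 than at E9.5, as were the neuronal markers given above. Cdk5, the neuronal kinase of migration and synaptic function (chr5:24418241-24423530), measured 33.6, 27.6 and 30.2 CPM at E9.5, 121, 82.1 and 81 CPM at E14.5 and 261, 191 and 269 CPM at P60. Every later stage stood above the one before it, with 1.55 ± 0.21, adjusted p = 7.8e-05, in the first step and 1.47 ± 0.21, adjusted p = 7.9e-05, in the second. Cdk5r1, which encodes p35 (chr11:80477023-80481184), measured 8.86, 8.4 and 8.57 CPM at E9.5, 425, 507 and 473 CPM at E14.5 and 141, 218 and 127 CPM at P60. This was the largest rise of any member in the first step, 51-fold (5.67 ± 0.23, adjusted p = 1.7e-08). The E14.5 libraries were the highest, and the gene fell at P60 against E14.5 (-1.39 ± 0.19, adjusted p = 6.3e-05), where P60 replicate 2 stood above the other two. Cdk5r2, which encodes p39, measured 4.68, 3.77 and 3.52 CPM at E9.5, 88.3, 65.9 and 61.9 CPM at E14.5 and 117, 169 and 93.2 CPM at P60, and rose in both steps (4.09 ± 0.27, adjusted p = 3.1e-07, and 0.94 ± 0.23, adjusted p = 0.0035). Over the whole span it had the largest rise of any member, 32.6-fold (5.03 ± 0.28, adjusted p = 2.6e-08). Per length, Cdk5r1 made up 59.4% ± 3.08 of the RPKM of both activators at E9.5, 81.3% ± 4.24 at E14.5 and 46.4% ± 1.58 at P60 (SD, n = 3 each).

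The other atypical kinases and cyclins moved in several directions. Cdk14, a kinase that acts with cyclin Y at the membrane in Wnt signalling, measured 19.8, 31.1 and 33.6 CPM at E9.5, 33.2, 79.7 and 78.5 CPM at E14.5 and 165, 221 and 163 CPM at P60. With 18877 bp of exon it is a long gene, and E14.5 replicate 1 was low, within the E9.5 range. It rose in both steps (1.08 ± 0.31, adjusted p = 0.0094, and 1.67 ± 0.31, adjusted p = 0.00051), with 1.39 and 1.36 when that library was left out. Ccny, cyclin Y itself, averaged 112 ± 11.9 CPM, 98.8 ± 7.51 CPM and 92.5 ± 10.1 CPM and was called in no comparison. It was called at E14.5 against E9.5 with median-of-ratios scaling (-0.35, adjusted p = 0.037) and DESeq2 (-0.33, adjusted p = 0.026), and at P60 against E9.5 without P60 replicate 2 (-0.31, adjusted p = 0.038). Cdk17 and Cdk16 are PCTAIRE kinases of neurons and other differentiated cells. Cdk17 measured 38.9, 44.1 and 45.9 CPM at E9.5, 92.4, 111 and 109 CPM at E14.5 and 127, 155 and 125 CPM at P60, and rose in both steps (1.19 ± 0.14, adjusted p = 2.4e-05, and 0.52 ± 0.14, adjusted p = 0.0053). For Cdk16 the levels were 231, 193 and 193 CPM at E9.5, 274, 203 and 201 CPM at E14.5 and 181, 215 and 135 CPM at P60, with overlap between all stages and no call. A p above the threshold does not show that Cdk16 or Ccny stayed level.

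The G cyclins are atypical cyclins linked to cell cycle arrest, and in both steps they were called in opposite directions. Ccng2 measured 26.5, 27.8 and 30.8 CPM at E9.5, 120, 134 and 128 CPM at E14.5 and 56.1, 46.9 and 60.5 CPM at P60, highest at E14.5 (2.08 ± 0.14, adjusted p = 3.9e-07, then -1.09 ± 0.14, adjusted p = 3e-05). Ccng1, a p53 target, measured 43.6, 62.3 and 55.9 CPM at E9.5, 28.2, 42.4 and 44 CPM at E14.5 and 125, 116 and 120 CPM at P60. Its E14.5 libraries were the lowest apart from an overlap with E9.5 (-0.59 ± 0.18, adjusted p = 0.014, lost without E9.5 replicate 2, -0.48, adjusted p = 0.068), and the P60 libraries stood above all others (1.80 ± 0.19, adjusted p = 6.5e-06). Ccni, cyclin I, an atypical cyclin abundant in postmitotic tissue, measured 167, 177 and 188 CPM at E9.5, 292, 277 and 258 CPM at E14.5 and 113, 160 and 120 CPM at P60. It rose at E14.5 (0.55 ± 0.16, adjusted p = 0.0097) and fell at P60 (-0.94 ± 0.16, adjusted p = 0.00025). At P60 against E9.5 Ccni was lower (-0.39 ± 0.16, adjusted p = 0.037), a call lost with upper quartile scaling (-0.24), without a filter, in a fit of those stages alone, and without E9.5 replicate 2 or 3, E14.5 replicate 2, or P60 replicate 1 or 3.

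In the transcription and splicing class most genes had their lowest level at P60, and the 2 largest falls over the whole span were in the partners cyclin K and Cdk12, which phosphorylate RNA polymerase II on long genes and DNA repair genes. Cdk12 measured 84.7, 122 and 113 CPM at E9.5, 35.8, 59 and 63.5 CPM at E14.5 and 6.9, 10.1 and 5.33 CPM at P60. It fell 13.9-fold at P60 against E9.5 (-3.79 ± 0.29, adjusted p = 3e-07). Ccnk measured 108, 98.8 and 96.1 CPM at E9.5, 77.8, 66.6 and 68 CPM at E14.5 and 12.3, 18.1 and 9.85 CPM at P60, a whole-span change of -2.87 ± 0.22, adjusted p = 2.9e-07. Its first step (-0.60 ± 0.20, adjusted p = 0.021) was lost without E9.5 replicate 1 or E14.5 replicate 2 or 3. The related kinase Cdk13, also a cyclin K partner, averaged 97.7 ± 11.7 CPM, 74.9 ± 20.7 CPM and 25.1 ± 5.45 CPM. Cdk13 was not called in the first step (-0.48 ± 0.21, adjusted p = 0.069) but was with a replicate block (-0.50, adjusted p = 0.014), and it fell in the second (-1.43 ± 0.22, adjusted p = 0.00013).

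The Mediator kinase pair exchanged places between E9.5 and P60. Cdk8 measured 85.9, 101 and 102 CPM at E9.5, 45.6, 52 and 55.3 CPM at E14.5 and 12.8, 14.6 and 14 CPM at P60, and fell in both steps (-1.01 ± 0.13, adjusted p = 4.6e-05, and -1.75 ± 0.13, adjusted p = 6.6e-07). Its paralog Cdk19 measured 16.3, 17.8 and 19.7 CPM at E9.5, 67.7, 85.4 and 78.7 CPM at E14.5 and 47.4, 69.8 and 41.2 CPM at P60. All E14.5 and P60 libraries of Cdk19 exceeded those of E9.5 (2.01 ± 0.20, adjusted p = 5.9e-06), and the second step was not called (-0.41 ± 0.19, adjusted p = 0.067), though it was with library totals (-0.55, adjusted p = 0.025), with a replicate block (-0.43, adjusted p = 0.032) and without P60 replicate 2 (-0.66, adjusted p = 0.0016). By merged exon length, Cdk19 held 23.9% ± 0.824 of the RPKM of both kinases at E9.5, 71.8% ± 1.47 at E14.5 and 86.1% ± 2.88 at P60 (SD, n = 3 each). These shares depend on the length used. By the longest transcript, Cdk8 and Cdk19 were level at E14.5 (13.1 ± 1.26 and 13.3 ± 1.53 RPKM). By that length they averaged 24.7 and 3.09 RPKM at E9.5, and 3.54 and 9.09 RPKM at P60. Their partner cyclin C (Ccnc) averaged 21.8 ± 2.29 CPM, 30.5 ± 1.7 CPM and 47.8 ± 6.06 CPM. Ccnc rose at P60 against E14.5 (0.79 ± 0.14, adjusted p = 0.00042), while its first step (0.39 ± 0.14, adjusted p = 0.032) was lost with median-of-ratios scaling (0.31), with DESeq2 (0.32) and without any 1 of E9.5 replicates 1 to 3 or E14.5 replicates 2 and 3.

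The CDK-activating complex, which activates other CDKs and acts in transcription within TFIIH, had members that differed. Ccnh, cyclin H, averaged 46.8 ± 1.77 CPM, 43.2 ± 4.86 CPM and 95.6 ± 15.6 CPM, with a call in the second step (1.28 ± 0.16, adjusted p = 3e-05). Cdk7, its kinase, averaged 106 ± 8.72 CPM, 46.3 ± 7.68 CPM and 43.5 ± 1.67 CPM, with a fall in the first step (-1.28 ± 0.14, adjusted p = 1.4e-05) and no call in the second (0.05 ± 0.14, adjusted p = 0.75). The elongation kinase Cdk9 averaged 115 ± 10.1 CPM, 97.3 ± 21 CPM and 69.7 ± 2.76 CPM, and was lower at P60 than at E9.5 (-0.68 ± 0.17, adjusted p = 0.0037) without a call in either single step. Calls were made without E14.5 replicate 1 in the first step (-0.54, adjusted p = 0.0045) and with library totals in the second (-0.48, adjusted p = 0.019). Its T cyclins fell more. Ccnt1 measured 77.5, 97.2 and 101 CPM at E9.5, 65.2, 86.8 and 88.8 CPM at E14.5 and 21.7, 29.8 and 21.8 CPM at P60, with the fall at P60 against E14.5 (-1.58 ± 0.18, adjusted p = 1.4e-05). For Ccnt2 the levels were 129, 149 and 157 CPM at E9.5, 91.7, 123 and 134 CPM at E14.5 and 32.2, 38.1 and 31.8 CPM at P60, falling mainly in the same step (-1.63 ± 0.16, adjusted p = 4.4e-06). The small first step of Ccnt2 (-0.41 ± 0.16, adjusted p = 0.037) was lost with library totals, without a filter and without any single library other than E14.5 replicate 3 or P60 replicate 2.

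The L cyclins, partners of splicing-linked CDK11, and Cdk10 complete the class. Ccnl1 measured 88.3, 96.1 and 98.8 CPM at E9.5, 59.8, 61.1 and 65.5 CPM at E14.5 and 14.4, 16.1 and 15 CPM at P60, and fell in both steps (-0.69 ± 0.12, adjusted p = 0.00036, and -1.89 ± 0.12, adjusted p = 1.9e-07). Ccnl2 measured 158, 166 and 178 CPM at E9.5, 145, 146 and 164 CPM at E14.5 and 43.9, 42.7 and 44.9 CPM at P60, with overlap and no call in the first step (-0.24, but called with median-of-ratios scaling, -0.32, adjusted p = 0.033, and DESeq2, -0.30, adjusted p = 0.0078) and a fall in the second (-1.65 ± 0.12, adjusted p = 5e-07). Cdk10, which pairs with cyclin M, averaged 36.7 ± 3.51 CPM, 45.8 ± 13.6 CPM and 70.3 ± 8.63 CPM, and rose at P60 against E14.5 (0.75 ± 0.21, adjusted p = 0.0082) although E14.5 replicate 1 (61.6 CPM) lay within the P60 range. The germline cyclin Ccna1, which acts in male meiosis, had low levels at all stages. It measured 0.523, 1.12 and 0.672 CPM at E9.5, 1.45, 1.34 and 1.06 CPM at E14.5 and 1.73, 1.41 and 1.49 CPM at P60, and was called at P60 against E9.5 (1.04 ± 0.31, adjusted p = 0.008). The 4 germ cell markers summed to 0.785 to 1.05 CPM at E9.5, 1.78 to 2.39 CPM at E14.5 and 5.85 to 6.71 CPM at P60. Stra8 had 0 reads at E14.5 and P60, and the 3 markers that passed the filter were all higher at P60 than at E9.5.

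Within-library ratios of 13 pairs of related members were compared over the 3 stages with exact permutation of the stage labels (F statistic), as log2 of (CPM + 1) of one gene over the other, with adjustment over the 13. The pairs were chosen with earlier results of these data known, so their p-values are not independent evidence. The ratios are not corrected for length, so what is compared is their change over stages. Of the 13 pairs, 12 passed at an adjusted p under 0.05 (11 with permutation within replicate numbers, which Ccne1 over Ccne2 did not pass), and 8 reached the smallest p the test can give (0.0036, adjusted p = 0.0058). Cdk5 over Cdk1, the postmitotic against the mitotic kinase, was -3.10 ± 0.10 at E9.5, 0.21 ± 0.10 at E14.5 and 6.92 ± 0.27 at P60 (SD, n = 3 each). With Cdk1 near 1 CPM at P60 that last value depends on the pseudocount, and it was 7.79 with 0.1 CPM. Rbl2 over Rbl1 shifted the same way, at -2.12 ± 0.09, 0.21 ± 0.11 and 3.91 ± 0.24, as did Cdk19 over Cdk8, at -2.36 ± 0.06, 0.59 ± 0.10 and 1.83 ± 0.35. Other ratios turned at E14.5. Ccnd2 over Ccnd1 was 1.23 ± 0.21, 3.10 ± 0.43 and 0.41 ± 0.08, and Ccng2 over Ccng1 was -0.89 ± 0.22, 1.74 ± 0.28 and -1.13 ± 0.15 (exact permutation test, adjusted p = 0.0093). Cdkn2d over Cdkn2c dipped at E14.5, at 2.38 ± 0.10, 1.09 ± 0.22 and 4.44 ± 0.12, and so did Cdk5r2 over Cdk5r1, at -0.95 ± 0.14, -2.70 ± 0.38 and -0.36 ± 0.09. These ratios depend on the pseudocount too where a gene is low. With 0.1 CPM, Rbl2 over Rbl1 was 4.41 at P60. Cdkn2d over Cdkn2c was then 2.77 at E9.5 and 4.74 at P60, and Cdk5r2 over Cdk5r1 -1.1 at E9.5.

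The remaining pairs moved less or with more spread. Ccne1 over Ccne2 was 1.63 ± 0.23, -0.11 ± 0.51 and 1.89 ± 0.19 at the 3 stages (exact permutation test, adjusted p = 0.0093, and 0.0602 with permutation within replicate numbers). Cdk17 over Cdk16 was -2.23 ± 0.27, -1.10 ± 0.40 and -0.36 ± 0.22, and Ccnl2 over Ccnl1 0.82 ± 0.03, 1.27 ± 0.03 and 1.47 ± 0.11. Cdk6 over Cdk4 was -4.26 ± 0.29, -3.78 ± 0.43 and -5.76 ± 0.48, and Ccnd3 over Ccnd1 -1.09 ± 0.04, -1.18 ± 0.13 and -0.62 ± 0.14 (exact permutation test, adjusted p = 0.012 for both). With a pseudocount of 0.1 CPM, Cdk6 over Cdk4 was -6.97 at P60, where Cdk6 lay under 1 CPM. Ccnt2 over Ccnt1, at 0.65 ± 0.06, 0.52 ± 0.06 and 0.47 ± 0.11, did not pass (exact permutation test, adjusted p = 0.071), but passed without P60 replicate 1 (adjusted p = 0.0464).

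**Figure D4:**
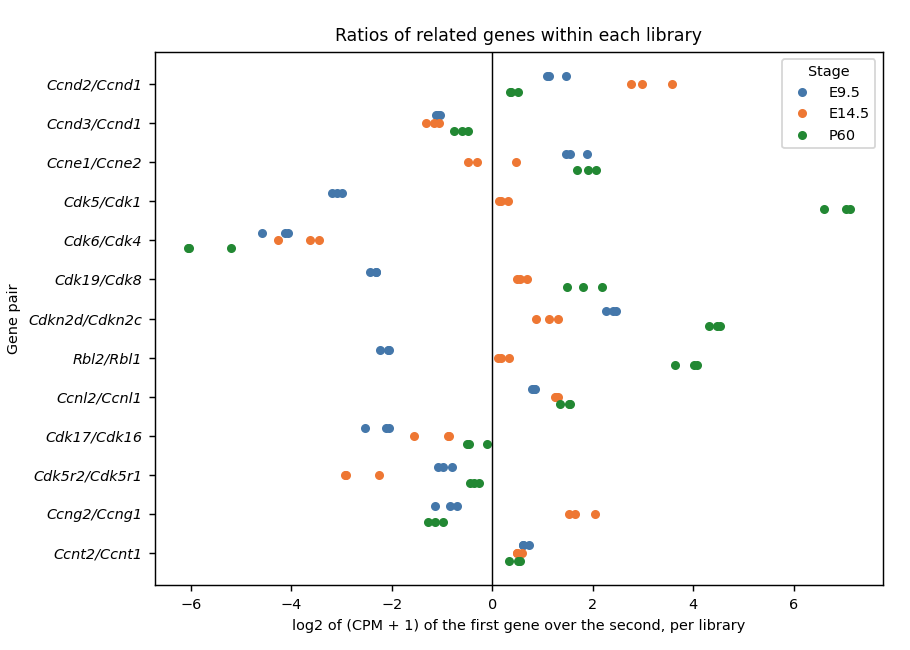
Log2 ratio of (CPM + 1) for each of the 13 pairs (rows), with a point for each library coloured by stage. Cdk5 over Cdk1 averages -3.10 at E9.5, 0.21 at E14.5 and 6.92 at P60, and Ccnt2 over Ccnt1 stays between 0.47 and 0.65 on average.

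Per length, the order of the members turned over between the stages. RPKM here is CPM divided by the merged exon length in kilobases. At E9.5 Cdk4 led at 329 ± 12.7 RPKM (SD, n = 3), above Ccnd2 (89.2), Ccnb2 (77.1) and Ccnd1 (76.5), whose libraries overlapped from one to the next, followed by Ccna2 (61.6) and Cdk1 (54.3). At E14.5 Cdk4 (166) was followed by Cdk5r1 (113), Ccni (83.5) and Ccnd2 (71.4), each without overlap with the next. At P60 Cdk5 led at 111 ± 19.8 RPKM, without overlap with Cdkn2d (65.8), and the libraries of Cdkn2d, Cdk5r2 (45.1) and Cdk16 (40.4) overlapped from one to the next. This order depends in part on the length used. By the longest transcript of each gene, Cdk4 led at E9.5 and E14.5 and Cdk5 at P60 as before. At E9.5 Ccnb2 (77.1 RPKM) then came after Ccnd1 (96.3) and Ccna2 (84.8), at E14.5 Ccnd2 (106) came before Ccni (98.4), and at P60 Cdk16 (54.1), Ccnh and Ccni (46.7 each) came before Cdk5r2 (45.1).

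**Figure D5:**
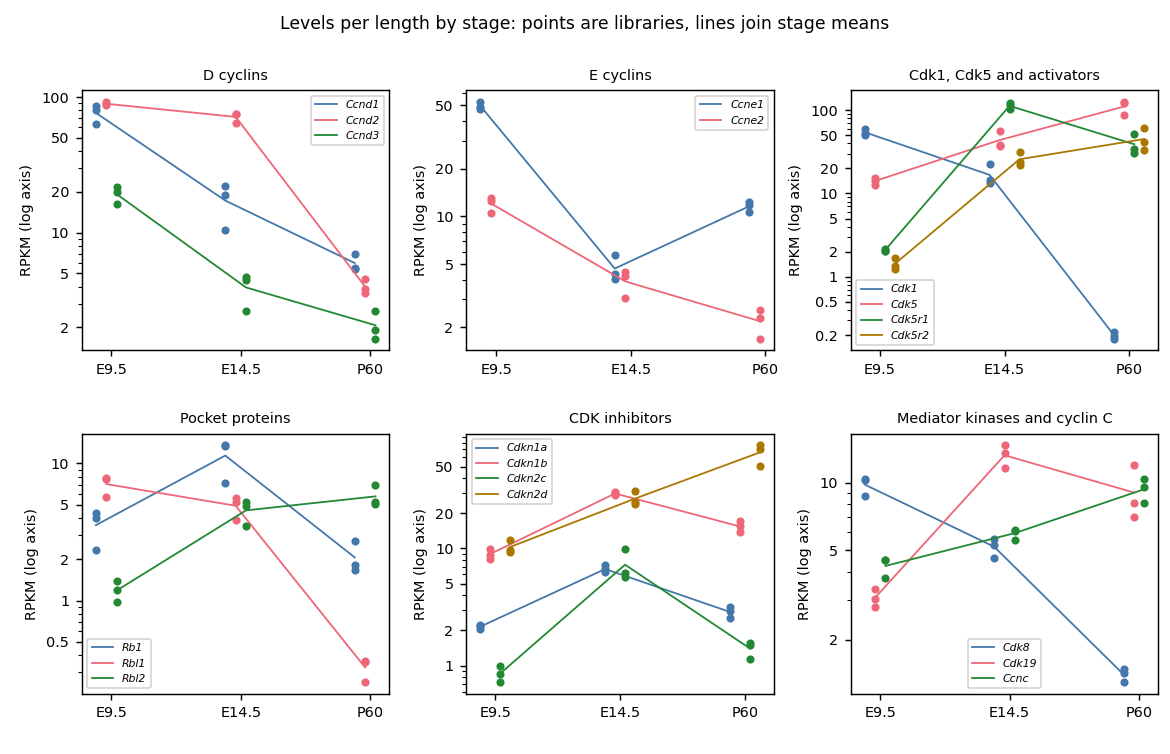
RPKM on a log axis against stage in time order for 6 groups of related members, with points for libraries and lines joining the means of 3. Among the pocket proteins Rbl1 is highest at E9.5 (60.2% of the 3 genes' RPKM), Rb1 at E14.5 (54.0%) and Rbl2 at P60 (70.8%).

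Around the members, 40 further regulators of the same pathway were listed, of which 39 passed the filter (Cdkn2a did not). In the first step 7 of the 39 rose and 24 fell, beside 34.0% and 30.7% of all genes. In the second 11 rose and 25 fell, beside 36.7% and 39.4%, and over the whole span 10 rose and 26 fell, beside 42.0% and 40.6%. The activators and adaptors (CDC25 phosphatases, Cks proteins, Cdc20, Skp2 and Mnat1) fell in 8 of 8 genes in the first step. Cdc20, the mitotic activator of the anaphase-promoting complex, fell furthest over the whole span (-6.90 ± 0.29, adjusted p = 4e-09), measuring 266, 242 and 230 CPM at E9.5, 94, 64.9 and 68.7 CPM at E14.5 and 1.76, 1.44 and 2.75 CPM at P60. Mnat1, the assembly factor of Cdk7 and cyclin H, was the exception in the second step, at 1.10 ± 0.18, adjusted p = 0.00024. Of the 11 E2F partners and DREAM or MYB-MuvB subunits, 2 rose and 9 fell over the whole span. Mybl2, the B-MYB subunit of the mitotic activator complex, had the largest fall (-8.31 ± 0.23, adjusted p = 4.1e-10), with 92.8, 88.1 and 91 CPM at E9.5, 17.3, 16.3 and 17.2 CPM at E14.5 and 0.224, 0.396 and 0.197 CPM at P60. Lin52, a core subunit shared by both complexes, had the largest rise (1.70 ± 0.17, adjusted p = 3e-06). Of the 6 inhibitory kinases and arrest factors tested, 1 rose and 5 fell over the whole span. Cdkn3, a CDK phosphatase, fell furthest (-3.62 ± 0.34, adjusted p = 2e-06), and Cdkn2b, the INK4 gene of p15, rose (4.68 ± 0.76, adjusted p = 0.00015), with at most 1.82 CPM in a P60 library and at most 0.0981 CPM in an E9.5 library, so its fold rests on few reads (5.93 without E9.5 replicate 1).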

How the data were processed

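The deposited table held raw counts of reads per gene for 9 libraries, built from poly(A)-primed, PCR-amplified full-length cDNA per the labels' protocols. Trimming with Trimmomatic 0.36 and alignment with STAR 2.5.2b to mm10 are on record per the submitters' processing notes. How reads were counted, with which annotation and strand setting, is not given in the sources used here, and overlapping genes on opposite strands cannot be separated. Symbols, coordinates and merged exon lengths came from GENCODE M21 (GRCm38, the assembly of mm10), which matched 45143 of 45706 identifiers. All columns were used, and samples were grouped by the stage in their labels.

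Counts were tested in R 4.3.3 with edgeR 4.0.16 (filterByExpr, TMM, robust quasi-likelihood fit, stage as the only factor, all 9 libraries in 1 fit). Tests were two-sided with Benjamini-Hochberg adjustment over 17971 genes, and each SE was the size of the log2 fold change divided by the root of the F statistic. The biological coefficient of variation was 19.9%, so spread between libraries rather than depth limits the precision of abundant genes. CPM and RPKM used library totals. Pair ratios used a pseudocount of 1 CPM and all 1680 assignments of libraries to stages. Scripts were tested on simulated data. Python 3.11.15 was used for the rest.

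The members, classes, pairs and other lists were chosen with earlier results of these data known. Named in full were the 2 members of each class with the largest change at P60 against E9.5, members called in opposite directions in the 2 consecutive steps, and members of pairs. Cdk14 was given in full outside this rule. Of each list of other regulators the called genes with the largest rise and fall at P60 against E9.5 were named. Among these, Lin52, Cdkn3 and Cdkn2b were given without their values in every library. Alternatives were scaling by library totals, by the upper quartile or by median of ratios, no filter, DESeq2 1.42.0, fits of 2 stages, a replicate block, each library left out, a pseudocount of 0.1 CPM and RPKM by longest transcript. Deviations of same-numbered libraries from their stage means correlated by 0.141 to 0.37 between E14.5 and E9.5, which met the rule for pairing (all over 0.1). They correlated by -0.224 to 0.337 between E14.5 and P60 and by -0.1 to 0.114 between E9.5 and P60. For libraries of different numbers the ranges overlapped these, at -0.29 to 0.202, -0.413 to 0.34 and -0.187 to 0.14 in the same order. The correlations therefore do not settle whether numbers pair libraries. Nothing in the labels says that a number marks a shared litter or day.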

Additional observations from a re-analysis of the deposited data

How the results depend on the processing

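No called member changed direction under any alternative run. Of the members called, 37 of 41 in the first step (to E14.5), 43 of 44 in the second (to P60) and 46 of 48 over the whole span kept the call under every other scaling, filter, tool, 2-stage fit and block, and 34, 43 and 45 did so with each library left out. Those lost are named beside their values. In class counts, the rises of the transcription class at E14.5 against E9.5 were 1 with median-of-ratios scaling and DESeq2 instead of 2 (1 to 2 with a library left out), and the falls of the postmitotic class were 2 instead of 1 (0 to 1). At P60 against E14.5 the rises among brakes were 1 with library totals instead of 2 (1 to 2). At P60 against E9.5 the falls among brakes were 0 with upper quartile scaling instead of 1 (0 to 1), and those of the postmitotic class were 0 with upper quartile scaling, no filter or a fit of 2 stages, instead of 1 (0 to 2). The cause was not tested. Upper quartile scaling moved the median of all genes by 0.16 in the second step and 0.15 over the whole span, and library totals by -0.14 in the second step. With the replicate block, Cdk13 was also called at E14.5 against E9.5, Cdk19 fell at P60 against E14.5 (-0.43, adjusted p = 0.032), and the ratio of Ccne1 to Ccne2 no longer passed (exact permutation test within numbers, adjusted p = 0.0602). RPKM by longest transcript correlated with RPKM by merged exons by rank at 0.976, 0.95 and 0.986 over the members at the 3 stages, but changed the order near the top, as given there. By the longest transcript, Cdk8 and Cdk19 were also level at E14.5. Levels of a few reads, as of E2f7 and E2f8 at P60, are limited by depth.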

Other observations

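Among the 40 further regulators, 14 were listed as family genes outside the members, and their courses differed from gene to gene. The list does not cover the rest of the family, as CDK inhibitor genes such as Cdkn1c and Cdkn2b were listed elsewhere. At P60 against E9.5, 7 of the 14 rose and 5 fell, counts near the shares of all genes (42.0% higher and 40.6% lower). Cdkl2, a CDK-like kinase, had the largest rise, with 0.981, 0.656 and 0.48 CPM at E9.5, 6.24, 8.16 and 7.67 CPM at E14.5 and 37.1, 39.6 and 38.6 CPM at P60 (5.81 ± 0.24, adjusted p = 3.4e-09). Ccnjl, a cyclin J-like gene, had the largest fall, with 57.9, 51.7 and 46.4 CPM at E9.5, 18.1, 13.9 and 16.8 CPM at E14.5 and 2.27, 2.91 and 2.64 CPM at P60 (-4.27 ± 0.19, adjusted p = 4.9e-09). Cdk18, the third PCTAIRE kinase, was chosen here after its values were seen. It measured 8.96, 8.89 and 7.23 CPM at E9.5, 0.799, 0.623 and 0.435 CPM at E14.5 and 20.9, 33.5 and 17.5 CPM at P60, so that the E14.5 libraries were the lowest (-3.83 ± 0.31, adjusted p = 1.6e-06) and the P60 libraries the highest (5.40 ± 0.32, adjusted p = 1.3e-07). The oligodendrocyte markers were also highest at P60, and their part in the rise of Cdk18 was not tested.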
